A study of Mus musculus with 10 samples.

Results

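The genes described here are 38 genes of the type I interferon response, listed by name, in 4T1 cells, an established line of mouse mammary carcinoma cells, grown inside collagen gels of high density (HD, 3.5 mg of collagen per mL) or low density (LD, 2 mg per mL). Each gel was seeded with 50000 cells and kept for 5 days in RPMI medium with fetal bovine serum, which was changed on day 3. The labels name no genetic change, drug or added interferon for either group, nor any animals or host cells. Total RNA of 5 HD and 5 LD samples was hybridised to Affymetrix mouse transcriptome arrays, 1 array per sample. Signals were deposited on the log2 scale after RMA, so a difference of 1 is a doubling of signal. A listed gene was taken from a row of the table that the platform annotation gives to that gene alone, and from the brightest such row where there were several. Of the 38 genes, 36 had such a row; Trex1 shared its row with another gene and Ifi44 had none, and both were not analysed here. The whole table gave 30142 genes, of which 17800 had a mean signal above the median of all rows (log2 5.24, called the signal floor here) and were tested. Above that floor lay 33 of the listed genes, while Isg15, Rsad2 and Oas2 lay below it.

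Type I interferons are secreted proteins that cells make when sensors in the cytosol or in endosomes meet foreign or misplaced nucleic acid. They bind a receptor of the subunits IFNAR1 and IFNAR2, which activates the kinases JAK1 and TYK2. STAT2 and IRF9 then take part in a complex that binds the interferon-stimulated response element (ISRE) of many promoters. The induced genes include the sensors and transcription factors themselves, feedback inhibitors, and effectors that degrade RNA, block translation or restrict viruses. Tumour cells without any infection can also express these genes.

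The promoters of a few members are shown because the ISRE is the element through which the complex that holds STAT2 and IRF9 acts. RefSeq promoter windows (build GRCm38.p6) run from 250 bases before a gene's start to 50 bases after it, 300 bases in all, and were found for 33 of the 38 listed genes. The pattern searched was GAAA, then any 2 bases, then GAAA, a core of the ISRE, on both strands, so that on the opposite strand it reads TTTC, any 2 bases, TTTC. At least 1 match was present in 13 of these 33 genes (39.4%), against 1079 of all 27025 genes with a window (3.99%). Per window the shares were 14 of 43 (32.6%) for the listed genes and 1131 of 32851 (3.44%) for all. A match is a description of the letters and not evidence of binding. Capitals mark the matches in the windows below, each printed 5′ to 3′ on the gene's own strand.
Ddx60, chr8:61927837-61928136, plus strand: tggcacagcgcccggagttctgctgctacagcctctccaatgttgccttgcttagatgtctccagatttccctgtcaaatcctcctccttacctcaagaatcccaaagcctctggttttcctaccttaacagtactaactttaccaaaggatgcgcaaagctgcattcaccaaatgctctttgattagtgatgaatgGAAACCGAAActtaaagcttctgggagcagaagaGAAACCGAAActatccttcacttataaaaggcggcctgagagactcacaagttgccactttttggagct
Ifit1, chr19:34640639-34640938, plus strand: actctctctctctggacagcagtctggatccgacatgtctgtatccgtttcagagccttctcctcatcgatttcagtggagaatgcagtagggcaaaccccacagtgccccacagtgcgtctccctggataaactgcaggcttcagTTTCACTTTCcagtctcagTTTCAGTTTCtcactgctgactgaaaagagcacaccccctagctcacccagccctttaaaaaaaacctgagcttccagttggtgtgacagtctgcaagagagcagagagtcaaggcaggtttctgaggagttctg
Isg15, chr4:156200769-156201068, minus strand: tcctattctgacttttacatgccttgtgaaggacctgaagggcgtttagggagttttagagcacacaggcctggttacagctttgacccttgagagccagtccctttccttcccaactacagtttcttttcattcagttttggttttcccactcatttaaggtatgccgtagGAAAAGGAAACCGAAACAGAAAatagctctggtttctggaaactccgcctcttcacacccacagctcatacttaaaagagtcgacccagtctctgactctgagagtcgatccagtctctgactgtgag
Oasl2, chr5:114896684-114896983, plus strand: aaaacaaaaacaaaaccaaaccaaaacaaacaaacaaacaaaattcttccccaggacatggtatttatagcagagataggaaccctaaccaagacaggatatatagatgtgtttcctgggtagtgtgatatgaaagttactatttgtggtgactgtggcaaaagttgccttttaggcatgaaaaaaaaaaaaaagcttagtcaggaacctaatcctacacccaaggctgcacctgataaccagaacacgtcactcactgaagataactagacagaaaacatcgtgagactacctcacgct
Ifit2, chr19:34550444-34550743, plus strand, the first of its 2 windows: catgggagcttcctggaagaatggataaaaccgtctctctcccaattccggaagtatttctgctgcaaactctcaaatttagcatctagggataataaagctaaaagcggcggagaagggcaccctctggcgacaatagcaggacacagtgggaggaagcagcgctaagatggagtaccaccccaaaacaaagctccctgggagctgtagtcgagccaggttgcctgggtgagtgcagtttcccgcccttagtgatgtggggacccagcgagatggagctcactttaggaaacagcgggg
Ddx60 had matches that begin at positions -53 and -19 from its start, and Ifit1 had matches at -104 and -85 on the opposite strand. In Isg15 the run of capitals holds 3 overlapping matches, which begin at -78, -72 and -66. Oasl2 and both windows of Ifit2 held no match, which says only that these letters are not in these windows. A match was present in 9 of the 26 members called lower that have a window (34.6%), and in 2 of the 3 tested members that were not called, Eif2ak2 and Ifitm3 (66.7%). Stat2 held 1 match, at -222, and Irf7 none.

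The interferon response genes were lower in HD gels as a group. Of the 33 tested members, 30 fell in HD and none rose (limma, Benjamini-Hochberg adjusted p under 0.05 over all tested genes), while 19.5% of all tested genes were called lower and 31.4% higher. With no floor, 32 of 36 members fell and none rose, against 11.3% of all 30142 genes called lower and 18.5% called higher. In that fit 15 of the 36 fell by at least 1.5-fold, against 0.942% of all genes, and 30 of the 36 had no overlap, against 9.44%. The median difference, HD minus LD, was -0.54 on the log2 scale for the tested members and 0.055 for all tested genes. All 5 HD values lay below all 5 LD values in 28 of the 33 tested members, against 15.1% of all tested genes. A fall of at least 1.5-fold was called for 14 of the 33 as deposited, against 1.56% of all tested genes. After scaling each array on its control rows, Zbp1, Irf7 and Dhx58 differed by -0.48, -0.51 and -0.40, each less than 1.5-fold. Counts at 1.5-fold therefore depend on scaling. Ddx60, Ifit3 and Trim30a passed the floor only through their LD arrays, and of the 30 members whose means lay above the floor in both groups 27 fell, against 19.5% of the genes so defined, and 13 of those by at least 1.5-fold, against 1.48%. In bulk samples a lower share of cells that express a gene and less of its RNA per cell cannot be told apart.

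**Figure D1:**
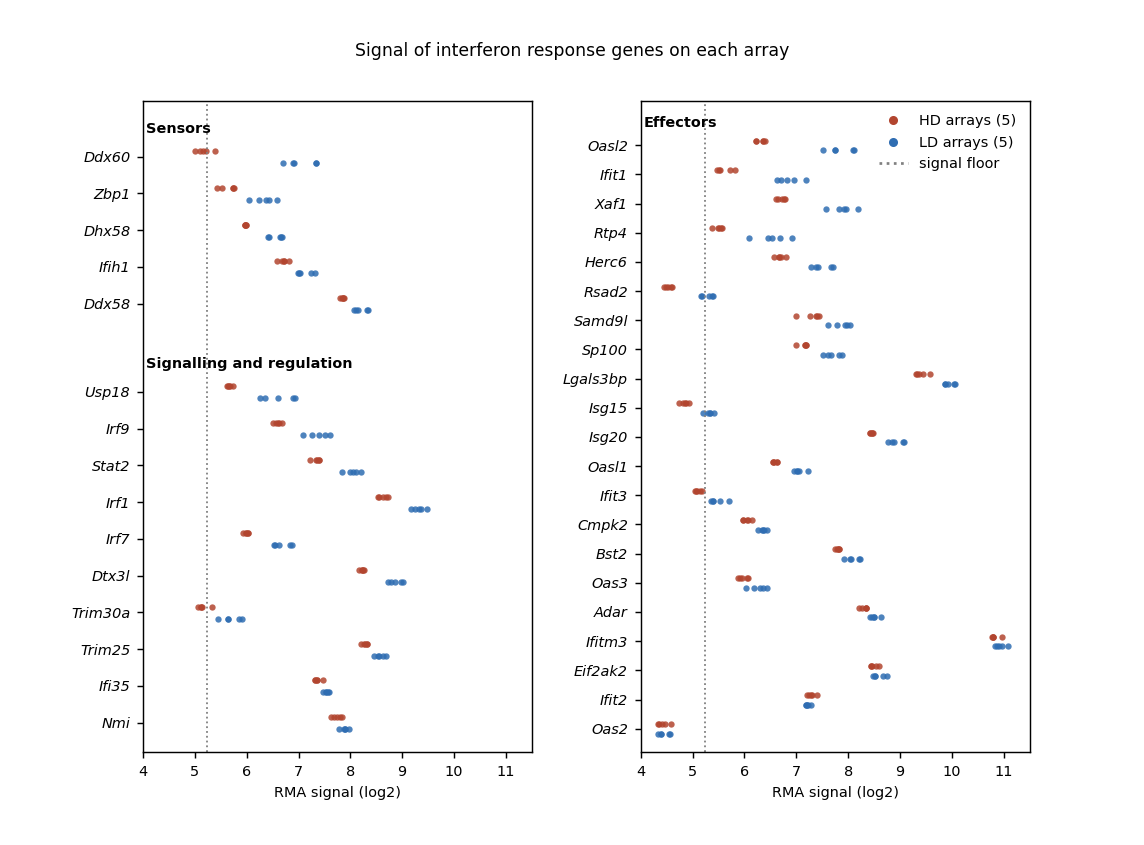
RMA signal (log2, horizontal axis) of the 36 members with a row on each of the 5 HD arrays (red) and 5 LD arrays (blue), ordered within each role by the size of the difference; the dotted line is the signal floor at 5.24. The red and blue points separate wholly in all 5 sensors and overlap in Nmi, Oas3, Ifitm3, Eif2ak2, Ifit2 and Oas2.

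Facts of the whole series bear on these values. All 6 epithelial markers examined lay above the floor, with Krt8 at 12.0 in both groups. Among them Epcam and Krt19 fell in HD by 0.60 and 0.76, and Cdh1 and Krt18 by 0.11 and 0.13; their part in the interferon result was not tested. Of 20 markers of myeloid cells, T cells, B cells and plasmacytoid dendritic cells with a row, 5 lay above the floor, 3 of those (Cd14, Cd3e and Ly6d) rose in HD and none fell, against 31.4% and 19.5% of all tested genes. With no floor, 6 of the 20 rose, Mrc1, Cd3d and Cd2 in addition, and none fell, against 18.5% and 11.3% of all genes. The means of Mrc1, Cd3d and Cd2 lay under the medians of the negative control rows in both groups, and that of Cd3e did so in LD. The rises of these 4 markers thus rest on signals at or near background. Cd14 (means of 7.72 in HD and 7.46 in LD) and Ly6d (6.08 in HD and 5.86 in LD) lay above those medians in both groups. What underlies their rises was not tested. Ptprc, the general marker of blood cells, had a mean of 3.14 in HD and 3.09 in LD. Control rows of the arrays moved with the groups, with a median over negative control rows of 5.26 to 5.58 on HD arrays and 5.61 to 5.75 on LD arrays (two-sided exact permutation p = 0.0079, the smallest that 5 against 5 can give). The other kinds of control row were higher in HD, with mean medians of 9.28 in HD and 9.21 in LD for positive controls, 3.63 in HD and 3.47 in LD for background rows and 4.70 in HD and 4.51 in LD for ERCC spike-in rows (two-sided exact permutation p = 0.0079, 0.0079 and 0.0317). The part of these shifts in the interferon result was not tested beyond the scaling on control rows given below. Members whose signal lies near those medians are therefore named as dim below. Whether replicate gels were independent cultures is not stated in the labels, and the p-values then reflect array-to-array spread that could be technical.

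All 5 sensors fell in HD. Ddx60 is a helicase that is induced by interferon and acts beside the RNA sensor RIG-I. Its signals were 5.40, 5.10, 5.00, 5.21 and 5.16 on HD arrays 1 to 5 and 7.34, 7.33, 6.92, 6.89 and 6.69 on LD arrays 1 to 5. The groups lay far apart, with 1.29 between the lowest LD and the highest HD value, and the HD mean lay below both the floor and the median of the negative controls. The measured means differed by -1.86 ± 0.114 SE (limma adjusted p = 5.3e-08). Because the HD signal is at background level and the gene passed the floor through its LD arrays alone, this size is set in part by background, and neither a fold nor a rank among the members is given.

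Zbp1, a sensor of left-handed nucleic acid that can trigger cell death, had signals of 5.52, 5.73, 5.43, 5.73 and 5.76 on the HD arrays, against 6.58, 6.43, 6.23, 6.36 and 6.04 on the LD arrays. It was 1.62-fold lower in HD (limma adjusted p = 3e-05), with HD values close to the negative controls. Its difference was -0.69 as deposited and -0.48 after scaling on control rows. Dhx58 encodes LGP2, a regulator of the other RIG-I-like receptors. Its 5 HD signals lay within 5.97 to 5.99, against LD signals of 6.66, 6.67, 6.43, 6.64 and 6.42. The HD arrays were nearly identical for this gene while the LD arrays were not, and the difference was -0.59 ± 0.0531 SE (limma adjusted p = 1.2e-06). Ifih1, which encodes the sensor MDA5 of long double-stranded RNA, had 6.72, 6.69, 6.59, 6.72 and 6.81 in HD, against 7.23, 7.31, 7.03, 7.01 and 6.98 in LD. Ddx58 encodes RIG-I itself, the sensor of RNA with a 5′ triphosphate, and ran from 7.81 to 7.87 in HD and from 8.07 to 8.35 in LD. These sensors fell 1.33-fold for Ifih1 and 1.28-fold for Ddx58 (limma adjusted p = 0.00014 and 9.5e-05), and neither pair of groups overlapped.

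All 10 signalling and regulatory members fell, with differences from -0.94 to -0.15 and a median of -0.67. Stat2 and Irf9 are the parts of the ISRE-binding complex that are in the list. Stat2 had signals of 7.33, 7.39, 7.35, 7.40 and 7.23 on the HD arrays, against 8.20, 8.10, 7.99, 8.06 and 7.83 on the LD arrays. Irf9, its DNA-binding partner, had 6.60, 6.62, 6.57, 6.69 and 6.51 in HD, against 7.61, 7.51, 7.27, 7.39 and 7.09 in LD. Every HD value lay below every LD value for both genes, and they were 1.62-fold and 1.71-fold lower in HD (-0.70 ± 0.0606 and -0.77 ± 0.0785 SE, limma adjusted p = 8.7e-07 and 3.1e-06).

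The interferon regulatory factors Irf7 and Irf1 fell to a like extent. Irf7, the factor that amplifies production of interferon alpha, had signals of 5.93, 6.02, 5.99, 6.03 and 5.99 in HD, against 6.88, 6.84, 6.53, 6.62 and 6.54 in LD, 1.61-fold lower (limma adjusted p = 1.7e-06). Irf1, which is induced by interferon gamma as well, had 8.69, 8.73, 8.52, 8.62 and 8.55 in HD, against 9.48, 9.35, 9.25, 9.32 and 9.17 in LD, 1.62-fold lower (limma adjusted p = 6.2e-07). Neither gene's groups overlapped. A second, dimmer row for Irf1 had means of 5.53 in HD and 5.79 in LD, a smaller difference of -0.26, so the size of the fall in Irf1 depends on the row.

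Usp18, which removes ISG15 from proteins and dampens signalling at the interferon receptor, showed the largest fall in this role. Its HD signals were 5.62, 5.74, 5.67, 5.64 and 5.69, against LD signals of 6.93, 6.89, 6.35, 6.61 and 6.25. The LD arrays spread over 0.68 and the HD arrays over 0.12, without overlap, and the gene was 1.92-fold lower in HD (-0.94 ± 0.11 SE, limma adjusted p = 1.1e-05). Its HD values are dim, close to the negative controls, so that background limits this fold. Dtx3l, a ubiquitin ligase that partners PARP9, had 8.25, 8.26, 8.22, 8.23 and 8.17 in HD, against 8.98, 9.02, 8.79, 8.86 and 8.72 in LD, 1.56-fold lower. Trim30a, a mouse TRIM protein that restrains inflammatory signalling, differed by -0.54, with an HD mean of 5.15 below the floor, and by -0.28 after scaling on control rows (limma adjusted p = 0.008). Trim25, the ubiquitin ligase that activates RIG-I, was 1.22-fold lower. Ifi35 and Nmi, partner proteins that bind each other, had the smallest falls, -0.17 and -0.15 (limma adjusted p = 0.0021 and 0.019). Nmi is the 1 signalling member whose groups overlapped, at 7.64 to 7.84 in HD and 7.78 to 7.97 in LD. After scaling each array on its control rows, Ifi35 and Nmi were no longer called (differences of -0.088 and -0.091, limma adjusted p = 0.099 and 0.11), and Nmi was also lost after quantile normalization (-0.090, adjusted p = 0.11), after median centring, and without HD replicate 4 or LD replicate 2 (adjusted p = 0.067, 0.055 and 0.052).

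Of 18 tested effectors, 15 fell and none rose, with a median of -0.47 and a wider range than the other roles, from -1.53 to 0.065. Oasl2, a protein of the oligoadenylate synthetase family, fell most. Its signals were 6.35, 6.40, 6.22, 6.36 and 6.22 on the HD arrays, against 8.12, 8.08, 7.74, 7.76 and 7.52 on the LD arrays. The lowest LD value exceeded the highest HD value by 1.12, and the gene was 2.89-fold lower in HD (-1.53 ± 0.0967 SE, limma adjusted p = 6.8e-08). Ifit1, which binds foreign RNA that lacks the host cap, had 5.81, 5.71, 5.53, 5.50 and 5.46 in HD, against 6.95, 7.18, 6.82, 6.70 and 6.62 in LD, 2.38-fold lower (limma adjusted p = 3e-07). Its HD values reach the level of the negative controls, so the fold is limited by background.

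Xaf1, a pro-apoptotic antagonist of the inhibitor of apoptosis XIAP, had signals of 6.76, 6.77, 6.61, 6.73 and 6.65 in HD, against 8.19, 7.95, 7.83, 7.91 and 7.58 in LD. It was 2.28-fold lower in HD (limma adjusted p = 1.7e-07). Rtp4, a receptor-transporting protein with antiviral activity, had 5.49, 5.54, 5.52, 5.57 and 5.38 in HD, against 6.68, 6.91, 6.46, 6.54 and 6.09 in LD, 2.05-fold lower with dim HD values. Herc6, the main ligase that attaches ISG15 in mouse, had 6.80, 6.66, 6.57, 6.67 and 6.70 in HD, against 7.71, 7.67, 7.37, 7.42 and 7.29 in LD, 1.76-fold lower (limma adjusted p = 1.4e-06). In all 3 genes the HD arrays lay wholly below the LD arrays.

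The next effectors fell by smaller amounts. Samd9l, which restricts poxviruses and cell growth, had 7.38, 7.44, 6.99, 7.27 and 7.40 in HD, against 7.99, 8.04, 7.93, 7.60 and 7.79 in LD, 1.49-fold lower. Sp100, a protein of PML nuclear bodies, had 7.17, 7.17, 6.99, 7.18 and 7.19 in HD, against 7.89, 7.81, 7.66, 7.62 and 7.51 in LD, 1.47-fold lower. On both genes HD array 3 was the lowest of all 10 arrays. Lgals3bp, a secreted glycoprotein that binds galectin-3, had 9.45, 9.59, 9.31, 9.33 and 9.37 in HD, against 10.04, 10.07, 9.86, 9.93 and 9.86 in LD, 1.46-fold lower. Isg20, an exonuclease that degrades single-stranded RNA, had 8.43, 8.47, 8.47, 8.42 and 8.46 in HD, against 9.05, 9.07, 8.89, 8.84 and 8.77 in LD, 1.39-fold lower. These 4 falls passed the test at limma adjusted p of 0.00014, 1.1e-05, 5.4e-06 and 1e-05.

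The remaining called effectors were Oasl1 (log2 difference -0.47), Ifit3 (-0.37), Cmpk2 (-0.31), Bst2 (-0.30), Oas3 (-0.30) and Adar (-0.20). Oasl1, which in mouse represses translation of Irf7, had 6.63, 6.57, 6.54, 6.62 and 6.56 in HD, against 7.01, 7.22, 7.02, 6.95 and 7.05 in LD. Cmpk2 is a mitochondrial nucleotide kinase, and Bst2 (tetherin) holds budding virus particles at the cell surface. Oas3 makes the oligoadenylates that activate RNase L, and its groups overlapped at 5.87 to 6.07 in HD and 6.03 to 6.44 in LD. Adar, the enzyme that edits adenosine to inosine in double-stranded RNA and thereby limits its detection, fell 1.15-fold. Ifit3 was dim in both groups (means of 5.11 in HD and 5.47 in LD), and the calls of Ifit3 and Oas3 ended under the control-row scaling (-0.099 and -0.097, limma adjusted p = 0.18 and 0.31). Cmpk2 differed by -0.12 under that scaling and still passed (limma adjusted p = 0.037).

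The well-known effectors Isg15 and Rsad2 lay below the floor in these cells. Isg15, the ubiquitin-like modifier whose promoter is shown above, ran from 4.74 to 4.92 in HD and from 5.20 to 5.41 in LD, and Rsad2 (viperin) from 4.45 to 4.60 in HD and from 5.17 to 5.38 in LD. Fitted with no floor, both passed the test as lower in HD (-0.48 and -0.75, limma adjusted p = 8.5e-06 and 6.4e-07), and neither pair of groups overlapped. All of these signals lay under the medians of the negative control rows, so no fold is given. Oas2, the third member below the floor, differed by -0.016 with overlapping groups.

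**Figure D2:**
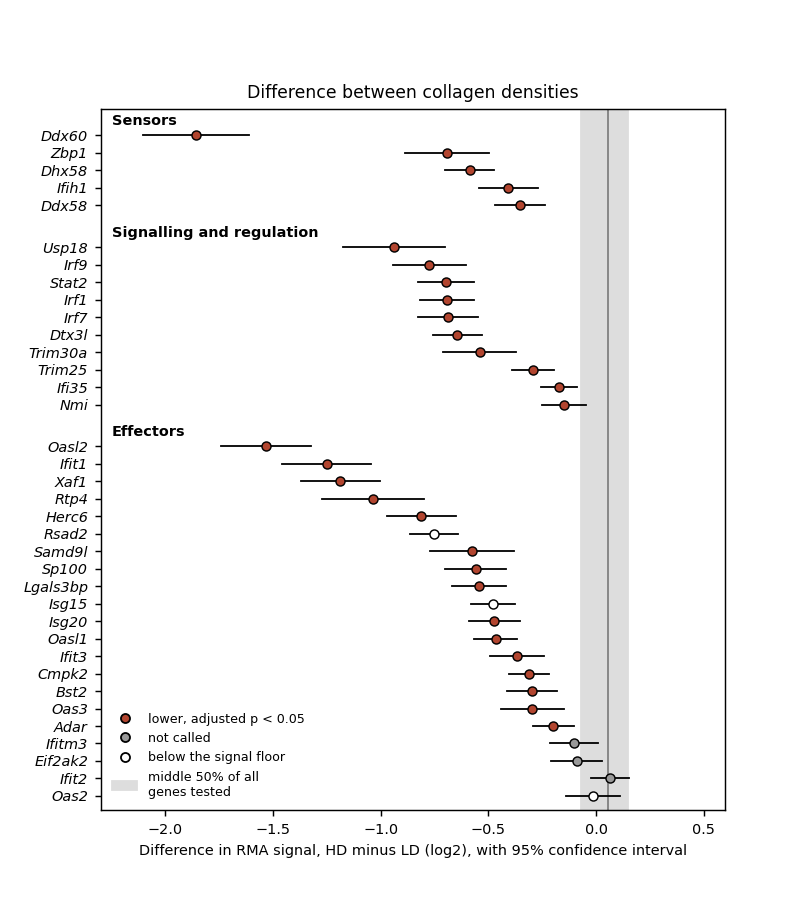
Difference in RMA signal, HD minus LD (log2, horizontal axis), for the 36 members with its 95% confidence interval from limma; red points passed the test as lower, grey points did not pass, open points lay below the signal floor, and the grey band holds the middle 50% of all tested genes around their median of 0.055. All members but Ifit2 lie left of 0; the point of Ddx60, at -1.86, rests on HD signals at background level.

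Ifitm3, Eif2ak2 and Ifit2 did not pass the test. Ifitm3, which blocks virus entry at endosomes, had 10.77 to 10.97 in HD and 10.83 to 11.08 in LD, a difference of -0.10 with a 95% interval from -0.22 to 0.009 (limma adjusted p = 0.11). Eif2ak2 encodes PKR, the kinase that stops translation on double-stranded RNA, and differed by -0.09 with an interval from -0.21 to 0.03 (limma adjusted p = 0.18). Ifit2, an RNA-binding relative of Ifit1, had signals of 7.40, 7.31, 7.20, 7.29 and 7.24 on the HD arrays, against 7.19, 7.21, 7.24, 7.19 and 7.28 on the LD arrays. The groups overlapped, with 3 of the 5 HD values above the highest LD value, and the difference was 0.065 with an interval from -0.023 to 0.15 (limma adjusted p = 0.20). The call of Ifit2 depended on scaling, since it was called higher after quantile normalization (0.15, adjusted p = 0.0055) and after control-row scaling (0.17, adjusted p = 0.0026). Ifitm3 was called lower in those settings (-0.14 and -0.31, adjusted p = 0.013 and 0.00061), with array weights (-0.12, adjusted p = 0.037) and without HD replicate 2 (-0.14, adjusted p = 0.033).

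Several members are neighbours in RefSeq's gene order. Ifit2 and Ifit3 are adjacent on chromosome 19, with Ifit1bl1, Ifit3b and Ifit1bl2 between Ifit3 and Ifit1. Within this cluster the difference was 0.065 for Ifit2, -0.37 for Ifit3 and -1.25 for Ifit1. Oasl2 and Oasl1, adjacent on chromosome 5, differed by -1.53 and -0.47, and Rsad2 and Cmpk2, adjacent on chromosome 12, by -0.75 and -0.31. The differences between neighbours were not tested. The Ifit and Oas families hold close paralogs that probes may not separate, so single values in them are uncertain.

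The LD arrays differed among themselves in these genes, and in nearly the same order from member to member. The mean signal of the 33 tested members was 7.07, 7.06, 6.96, 7.03 and 7.01 on HD arrays 1 to 5, against 7.76, 7.75, 7.55, 7.57 and 7.45 on LD arrays 1 to 5. The HD arrays had an SD of 0.0413 and the LD arrays of 0.136, and the lowest LD array still lay 0.383 above the highest HD array. LD array 1 or 2 gave the highest LD value in 31 of the 33 members, against 42.8% of all tested genes. LD array 5 gave the lowest LD value in 25 of 33, against 16.7% of all tested genes. The full order, with arrays 1 and 2 above arrays 3 and 4 and array 5 below these, held in 24 of 33 members (72.7%) and in 820 of all 17800 tested genes (4.61%). Replicate numbers carry no order of their own, and this order is a description of 5 arrays.

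The wider spread in LD was less common in the rest of the table, but not confined to the members. Outside the list, the SDs in LD and HD were 0.0834 and 0.0196 for Ifnar2, 0.104 and 0.0344 for Ifngr1 and 0.142 and 0.0386 for Epcam. These genes also held the full order among LD arrays given above. Others outside the list, such as Jak2, Tlr3 and Krt19, had the smaller SD in LD. The SD among LD arrays exceeded the SD among HD arrays in 27 of the 33 members (81.8%), against 37.7% of all tested genes, and it was over 2 times as large in 14 members (42.4%), against 6.44% of all tested genes. The median SD of the members was 0.0722 in HD and 0.139 in LD, while that of all tested genes was 0.0765 in HD and 0.0633 in LD. Averaged over all tested genes, no LD array departed from the LD mean by more than 0.0033. Normalization between arrays keeps such a mean small, and rises and falls of single genes cancel in it. It therefore says nothing of the spread of other genes. The sensors, the signalling genes and the effectors showed the same split, with mean deviations of 0.19, 0.15 and 0.13 on LD array 1 and of -0.21, -0.17 and -0.15 on LD array 5. The negative control medians of LD arrays 1 to 5 were 5.75, 5.61, 5.64, 5.66 and 5.67. The medians of their background rows were 3.45, 3.40, 3.44, 3.54 and 3.50. A part of control signal in the order among LD arrays was not tested.

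**Figure D3:**
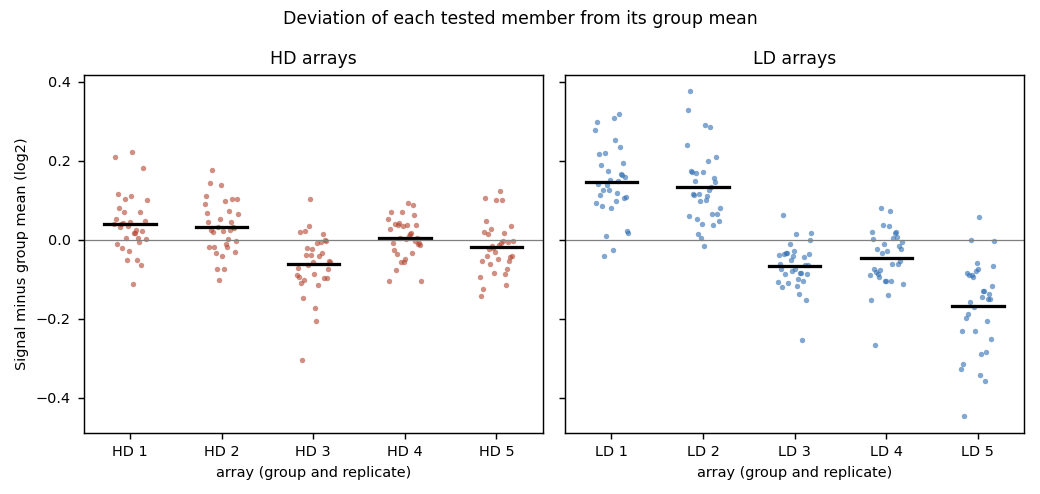
Deviation of each of the 33 tested members from its own group mean (log2, vertical axis) on the 5 HD arrays (left) and the 5 LD arrays (right); each point is a gene and each black bar the mean over genes. The bars of the HD arrays lie between -0.061 and 0.041, those of LD arrays 1 and 2 at 0.15 and 0.13, and that of LD array 5 at -0.17.

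Members that fell more in HD were also those that varied more among LD arrays. Across the 33 tested members, the fall in HD and the range over the 5 LD arrays had a Pearson correlation of 0.81 and a Spearman correlation of 0.82. Across all tested genes these were 0.051 and -0.057. The fall is signed, and 11212 of all 17800 tested genes were higher in HD, so rises and falls can cancel there. The values over all genes are therefore not a like comparison for members that nearly all fell. Both measures use the same LD arrays and genes are not independent replicates, so these are descriptions with no p. Rtp4 had the widest LD range, 0.82, and Ddx60 and Usp18 had 0.65 and 0.68, whereas Ifit2, the member with no fall, ranged over 0.087.

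**Figure D4:**
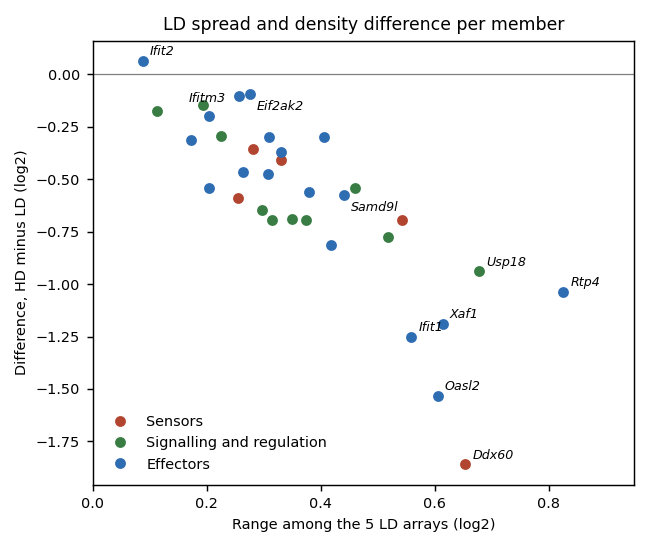
Difference HD minus LD (log2, vertical axis) against the range among the 5 LD arrays (log2, horizontal axis) for the 33 tested members, coloured by role. Ifit2 lies at the upper left with a range of 0.087 and a difference of 0.065, and Ddx60 at the bottom with 0.65 and -1.86.

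Ligands, receptors and pathway genes outside the list of members changed less and in both directions. They are called upstream genes here for short, though some, such as Trim21, are themselves induced by interferon. Of 38 ligands, receptors, kinases, adaptors and inhibitors, 36 had a row and 32 were tested, of which 13 fell and 5 rose, against 19.5% and 31.4% of all tested genes. All 5 HD values lay below all 5 LD values in 12 of the 32, against 15.1% of all tested genes, and above them in 5, against 21.6%. None of the 32 changed by 1.5-fold, while 1.56% of all tested genes were lower and 0.775% higher by that much. Their median difference was -0.087.

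The ligands gave little signal. Ifnb1, which encodes interferon beta, lay below the floor at 4.11, 4.01, 4.30, 4.04 and 4.19 in HD and 3.60, 4.04, 3.98, 3.91 and 3.99 in LD, overlapping groups that differed by 0.22 without a call (limma with no floor, adjusted p = 0.051). Ifna2 and Ifna4 also lay below the floor, and Ifna1, at means of 5.71 in HD and 5.56 in LD, was near the negative controls. Ifna1 did not pass (0.15, limma adjusted p = 0.075) but was called higher under 6 alternatives, by up to 0.39 after control-row scaling (adjusted p = 0.0025). No statement on ligand RNA can be made from signals this close to background.

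Both subunits of the type I receptor fell. Ifnar1 had 9.08, 9.09, 9.00, 9.10 and 9.05 in HD, against 9.36, 9.36, 9.30, 9.29 and 9.29 in LD, 1.19-fold lower (limma adjusted p = 3.7e-05). Ifnar2 had 8.41, 8.42, 8.38, 8.42 and 8.44 in HD, against 8.75, 8.76, 8.62, 8.62 and 8.58 in LD, also 1.19-fold lower (limma adjusted p = 0.00019). These falls were small but exceeded the spread between arrays, with no overlap. The interferon gamma receptor subunits Ifngr1 and Ifngr2 fell 1.30-fold and 1.12-fold. Of the receptor kinases, Tyk2 and Jak2 fell 1.25-fold and 1.19-fold, while Jak1 differed by -0.063 with a 95% interval from -0.13 to 0.005 and did not pass. Jak1 was called lower after quantile normalization and control-row scaling (-0.11 and -0.17, limma adjusted p = 0.0063 and 0.0021). Ifnlr1 and Il10rb of the interferon lambda receptor did not pass the test (limma adjusted p = 0.079 and 0.084), and each was called lower under 2 alternatives.

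Sensors and adaptors outside the list went both ways. Tlr3, the endosomal receptor for double-stranded RNA, had 8.13, 8.11, 7.84, 8.13 and 8.11 in HD, against 8.64, 8.65, 8.51, 8.40 and 8.43 in LD, 1.38-fold lower (limma adjusted p = 5.6e-05). Trim21, an intracellular antibody receptor that interferon induces, was 1.46-fold lower, Ikbke, a kinase that phosphorylates IRF3, 1.29-fold, and Ifi204 1.20-fold. In the DNA-sensing pathway the enzyme and its target moved apart: Cgas had 7.26, 7.14, 6.96, 7.10 and 7.27 in HD, against 6.75, 6.79, 6.83, 6.66 and 6.85 in LD, 1.29-fold higher, whereas Sting1 was 1.16-fold lower (limma adjusted p = 0.00015 and 0.012), the HD and LD values of Sting1 overlapping. Myd88, an adaptor of Toll-like receptors, rose 1.25-fold, and Irf5 rose 1.11-fold. Mavs, the adaptor of RIG-I and MDA5, the kinase Tbk1 and the factor Irf3, named after their values were seen, differed by -0.13, -0.042 and 0.039 and did not pass. Mavs was called lower under 5 alternatives, control-row scaling among them (adjusted p = 0.042), and Irf3 was called higher after quantile normalization and control-row scaling (0.11 and 0.12, adjusted p = 0.037 and 0.027). Under control-row scaling Ifi204 differed by -0.41, Ifngr2 by -0.27 and Irf5 by 0.31, each over 1.5 times the difference as deposited.

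Inhibitors of signalling also differed in direction. Socs1, which blocks the receptor kinases, had 7.89, 8.05, 8.14, 7.99 and 7.88 in HD, against 7.69, 7.54, 7.55, 7.73 and 7.72 in LD, 1.27-fold higher without overlap (limma adjusted p = 0.00021). The phosphatase Ptpn11 rose 1.17-fold and the phosphatase Ptpn6 fell 1.18-fold. Irf2, which competes with IRF1, fell 1.14-fold. Socs1 and Usp18, both feedback inhibitors of this pathway, thus moved in opposite directions, higher and lower in HD.

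**Figure D5:**
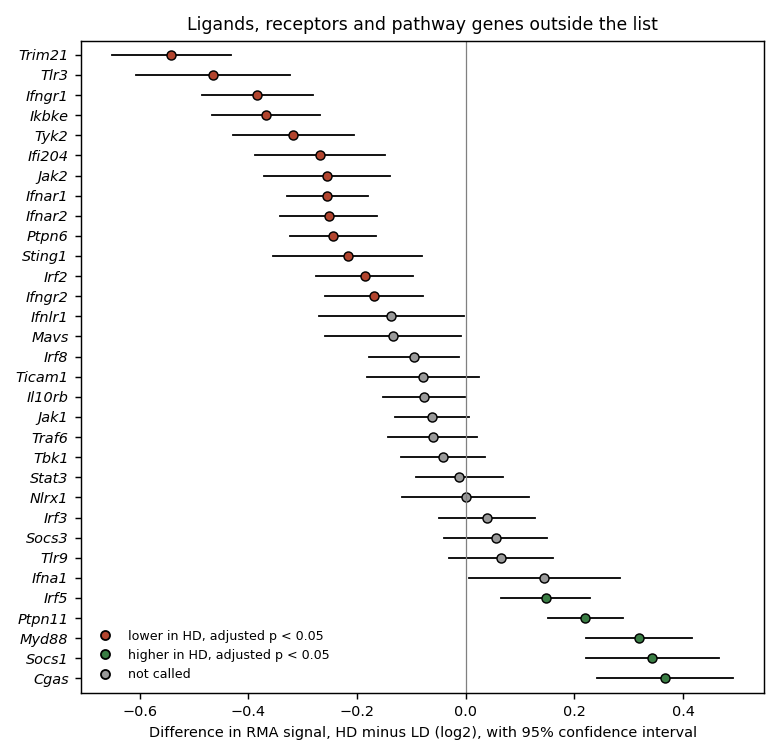
Difference HD minus LD in RMA signal (log2, horizontal axis) with its 95% confidence interval from limma for the 32 tested pathway genes outside the list. Red points passed as lower, green as higher, and grey did not pass. Trim21 (-0.54) lies at one end and Cgas (0.37) at the other.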

How the data were processed

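The authors deposited 1 table of log2 signals, for which RMA is named per the submitters' processing notes; software version, annotation and build: not given in the sources used here. The scale was taken from the values (1.49 to 14.3, not centred). RMA can compress folds, and background limits folds of dim genes. Of 30604 rows with 1 gene symbol, 22818 matched RefSeq by gene ID (GRCm38.p6, names, gene order and promoter windows only) and 827 symbols were updated. The contrast HD minus LD was fitted with limma 3.58.1 under R 4.3.3, without covariates, two-sided, on 17800 genes. P-values were Benjamini-Hochberg adjusted over all of them (threshold 0.05). The test was tested on simulated data with independent noise and few changed genes. These data differ from that setting, so error rates here are not known from it. Array number, not read depth, limits precision. Scanner files and scan dates were not used here. Folds are given where both group means exceed 5.24. Members, lists, the naming rule (all members; all values for the 4 sensors, 6 signalling genes and 10 effectors that changed most; called upstream genes, ligands and receptors) and alternatives were chosen with earlier results of these data known. Same-numbered arrays had deviation correlations of -0.091 to 0.22 over genes, so replicate numbers were not used as pairs. Alternatives were a replicate block, quantile normalization, median centring, control-row scaling, no or a stricter floor (6.96), averaged rows, trended robust variances, array weights and leaving out each array.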

Additional observations from a re-analysis of the deposited data

Results flagged for a closer look

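Single arrays stood apart from the other 4 of their group in 4 of 130 groups of 5 values examined by Dixon's gap test, which flags about 1 in 20 by chance. HD array 3 was low for Sp100 (6.99, against 7.17 to 7.19 on the other HD arrays) and for Tlr3 (7.84, against 8.11 to 8.13). HD array 2 was high for Ifitm3 (10.97, against 10.77 to 10.80), and without it Ifitm3 was called lower (adjusted p = 0.033). LD array 1 was high for Ifngr2 (9.82, against 9.73 to 9.75).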

How the results depend on the processing

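Under the 19 alternatives no tested member changed direction. The count of tested members lower in HD was 27 to 31 of 33, except 32 of 36 with no floor and 17 of 20 under the stricter floor, which removes members from the test; leaving out 1 array gave 29 to 31. With the replicate block, 30 of 33 were lower, and the block changed no call among the members; it added Ifnlr1 and Mavs as lower (adjusted p = 0.04 and 0.045). Ifna1, Ifnlr1, Il10rb, Jak1, Irf3 and Mavs were each called under at least 1 alternative. Members called higher numbered 1 (Ifit2) after quantile normalization and 1 after control-row scaling, and 0 otherwise. Control-row scaling called 8 upstream genes higher and 8785 of all genes higher, against 5 and 5589 as deposited. The share of calls that were higher was 61.7% as deposited, 69.4% after median centring, 72.1% after quantile normalization and 72.1% after control-row scaling, which placed the median of all genes at 0.13. The SD of the mean member signal was 0.0342 to 0.0562 among HD arrays and 0.129 to 0.141 among LD arrays in every scaling and with all 36 members. Signals near the negative controls (Ddx60, Ifit1, Ifit3, Rtp4, Usp18, Zbp1, Trim30a, Isg15 and Rsad2) limit what can be said of size. The replicate numbers were not shown to pair samples.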
